A study of Homo sapiens with 2 samples.

Results

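Wide FLAG peaks are the rows of the deposited peak list on chromosomes 1 to 22 and X whose end lies 500 bp or more beyond their start. This rule found 708 peaks among 9670 on these chromosomes (7.32%) and 9717 in the whole list, and left 8962 narrower peaks for comparison. The members were thus chosen by their called width, a measured value, so width is described and not tested. The series holds 2 chromatin libraries of U87MG, an established human glioblastoma cell line. One was precipitated with an antibody against the FLAG tag and the other is input. Both groups carry the label of a wild-type genotype and received LY294002, which inhibits phosphoinositide 3-kinase. In CETCh-seq, genome editing places an epitope tag on an endogenous transcription factor, here FOXO3, and the labels do not say whether the line was 1 clone. The one peak list is that of the FLAG library, and whether the input served as its control is not given. With 1 library, no difference below has a replicate check and none was tested, and every interval covers counting error only.

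FOXO3 is a forkhead factor that is phosphorylated by AKT and held in the cytoplasm while phosphoinositide 3-kinase is active. When the kinase is inhibited, FOXO3 moves into the nucleus and binds DNA through a short motif with the core letters TGTTTAC. Its known targets include brakes of the cell cycle, regulators of mTOR, insulin and IGF receptors, and autophagy genes. A peak caller reports a peak as the stretch over which extended tags exceed a local threshold, with the summit where they are highest. Width therefore grows with the height of the signal over the background, and also where signals of adjacent positions run together.

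A gene was given for only 49 of the wide peaks, from general knowledge of hg19. Of these 49, 10 lay across the start of a gene whose place in hg19 is certain. The remaining wide peaks were not placed against genes, so the share of all wide peaks at gene starts is not known. Of the 11 genes at these starts, 8 had a promoter sequence in the RefSeq table of GRCh38.p14. The letters TGTTTAC or their reverse complement GTAAACA were found in the 250 bases before a listed start in 2 of the 8, HBP1 and TXNIP. Some genes have more than 1 listed start, so this is 2 of 14 windows, and the same letters were in 2.98% of all 34943 promoter windows of that length. The genes were chosen with earlier results of these data known, and some of the 14 windows overlap each other. The 2 shares therefore cannot show whether these letters are enriched at wide peaks, which was not tested. Their positions were 173 bases before the start of HBP1 and 124 bases before that of TXNIP. A match is a description of letters and not a binding site. The windows are of GRCh38.p14 and the peaks of hg19, so their overlap was not computed. Shown 5′ to 3′ with these letters in capitals are HBP1 on chromosome 7 from 107168753 to 107169002 (plus strand) and TXNIP on chromosome 1 from 145996580 to 145996829 (minus strand). TSC1 on chromosome 9 from 132944617 to 132944866 (minus strand) is shown as the gene start under the widest of these peaks. PIK3IP1 on chromosome 22 from 31292535 to 31292784 (minus strand) is shown as the gene with a pair of wide peaks. No match was in the windows of TSC1 and PIK3IP1, which says only that these letters are not in them.
HBP1: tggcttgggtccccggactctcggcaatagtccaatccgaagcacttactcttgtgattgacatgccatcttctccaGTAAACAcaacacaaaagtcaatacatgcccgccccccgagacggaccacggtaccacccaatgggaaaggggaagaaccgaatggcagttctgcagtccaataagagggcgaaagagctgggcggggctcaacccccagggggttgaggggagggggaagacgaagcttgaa
TXNIP: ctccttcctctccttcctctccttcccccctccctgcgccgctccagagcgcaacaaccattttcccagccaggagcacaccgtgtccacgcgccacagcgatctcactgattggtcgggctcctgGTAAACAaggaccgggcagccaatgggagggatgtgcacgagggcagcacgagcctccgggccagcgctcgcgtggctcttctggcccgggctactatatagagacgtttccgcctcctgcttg
TSC1: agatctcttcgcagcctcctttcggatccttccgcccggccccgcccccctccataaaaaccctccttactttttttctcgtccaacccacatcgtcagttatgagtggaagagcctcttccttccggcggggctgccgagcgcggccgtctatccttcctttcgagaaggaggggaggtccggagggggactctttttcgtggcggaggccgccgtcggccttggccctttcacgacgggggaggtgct
PIK3IP1: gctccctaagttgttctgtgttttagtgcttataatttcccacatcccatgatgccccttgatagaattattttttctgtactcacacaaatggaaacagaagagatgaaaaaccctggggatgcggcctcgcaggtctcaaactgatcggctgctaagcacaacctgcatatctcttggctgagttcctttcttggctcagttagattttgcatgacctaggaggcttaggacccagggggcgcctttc

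HBP1 encodes a transcriptional repressor that slows the cell cycle. Its wide peak (hg19, chromosome 7 from 106808761 to 106809484) was 724 bp wide and had 198 ChIP tags at the summit over a background of 8.52 tags. The fold (or enrichment), which the caller computes as pileup plus 1 over background plus 1, was 20.9, with a 95% Poisson interval (exact) of 18.1 to 24.0. Here and below, intervals of folds cover the counting error of the pileup only and take the background as exact. TXNIP, an inhibitor of thioredoxin and of glucose uptake, had a less wide member across its start, on chromosome 1 from 145437998 to 145438537. It was 540 bp wide, with 126 tags over 9.92 and an enrichment of 11.6 (9.71 to 13.8). The TSC1 peak, on chromosome 9 from 135819822 to 135820653, was 832 bp wide, and TSC1 is a subunit of the complex that restrains mTOR. It had 96 tags over 12.1 and an enrichment of 7.40 (6.01 to 9.02), below the interval of HBP1. Its summit lay 602 bp into the peak, at 0.722 of the width.

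PIK3IP1, a membrane protein that inhibits phosphoinositide 3-kinase, held one of the 3 closest pairs of wide summits. One peak lay inside the gene, from 31686416 to 31687100 on chromosome 22, and the other across its start, from 31688115 to 31688676. They were 685 and 562 bp wide. The first had 252 tags over 19.6 (fold 12.3, interval 10.8 to 13.9) and the second 101 tags over 7.68 (fold 11.8, interval 9.59 to 14.3). The intervals of the folds overlapped, although the first pileup was the higher. The summits were 1701 bp apart, with 1014 bp between the called edges and no peak between them.

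In the other closest pairs the folds were lower. In CABLES1, a cyclin-dependent kinase adaptor on chromosome 18, wide peaks from 20805351 to 20806001 and from 20806908 to 20807445 had summits 1313 bp apart and folds of 5.45 and 4.05. In ATOSA on chromosome 15, peaks from 52943794 to 52944472 and from 52945346 to 52946018 had summits 1052 bp apart and folds of 3.29 and 2.07. The second of these had its summit at base 22 of 673, at 0.0312 of the width and on the side of its neighbour. Its fold and that of a 573 bp peak on chromosome 12 from 50991133 to 50991705 were the lowest of all wide peaks, each with 30 tags over 14.0.

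The widest peaks were not the most enriched. The 25 widest ran from 829 to 1191 bp and had folds from 2.85 to 16.6, with a median of 7.36, on 13 chromosomes. Of these, 8 had a fold of at least 10 and 6 a fold under 5. The widest of all, on chromosome 12 from 24991558 to 24992748 inside BCAT1, had an enrichment of 4.85 (3.50 to 6.57) from 40 tags over 7.45. BCAT1 is the cytosolic branched-chain aminotransferase, an enzyme known for its expression in glioblastoma. A gene is given for 20 of the 25, where its place in hg19 is certain, and whether a peak lies in an exon or an intron was not analysed here.

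IGF1R, the receptor for insulin-like growth factors, held the third widest peak, from 99395320 to 99396333 on chromosome 15. It was 1014 bp wide with 232 tags over 13.03, and its fold of 16.6 (14.5 to 18.9) was the highest of the 25. Its summit lay at 0.301 of the width. PDGFC, a ligand of the PDGF receptors, held a 999 bp peak on chromosome 4 from 157867669 to 157868667, with 78 tags over 5.59 and an enrichment of 12.0 (9.51 to 14.9). The intervals of both folds overlapped narrowly.

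Inside PDE4DIP, a centrosomal and Golgi scaffold protein, lay the second widest peak, from 144988937 to 144990045 on chromosome 1. It was 1109 bp wide and had 353 tags, and its background of 25.1 tags was the highest value among wide peaks, reached by one other. Its fold was 13.5 (12.2 to 15.03). This stretch of chromosome 1 is known for near-identical copies, so the placing of its reads is uncertain.

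Enriched peaks of similar width lay inside genes of varied roles. DENND5B, which belongs to the regulators of Rab GTPases, held a 973 bp peak on chromosome 12 from 31671190 to 31672162, with 95 tags over 5.59 and an enrichment of 14.6 (11.8 to 17.8). FKBP15 on chromosome 9 held one of 950 bp from 115946643 to 115947592 with an enrichment of 14.0 (11.3 to 17.1). SORBS2, a cytoskeletal adaptor, held one of 906 bp on chromosome 4 from 186631571 to 186632476 with an enrichment of 13.8 (11.1 to 16.9). COA1, which acts in the assembly of cytochrome oxidase, held one of 870 bp on chromosome 7 from 43687233 to 43688102 with an enrichment of 11.6 (9.56 to 13.9). The intervals of these 4 peaks overlapped, so their order was within counting error.

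Between BACH2, a transcriptional repressor, and MAP3K7, a kinase of NF-kB signalling, lay 2 of the 25. The one from 91037585 to 91038429 on chromosome 6 was 845 bp wide with an enrichment of 15.6 (12.5 to 19.2) from 87 tags over 4.66. The one from 91078558 to 91079387 was 830 bp wide with an enrichment of 7.36 (5.74 to 9.30) from 68 tags over 8.38. These intervals did not overlap, although the peaks differed by little in width. They take the backgrounds of 4.66 and 8.38 tags as exact, so a difference beyond all counting error is not shown.

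The weakest of the 25 lay in DNAL1 and SLC35F4 on chromosome 14. DNAL1, an axonemal dynein light chain, held a 979 bp peak from 74163150 to 74164128 with 31 tags over 10.2 and an enrichment of 2.85 (1.96 to 4.003). SLC35F4, of a family of solute carriers, held an 884 bp peak from 58315027 to 58315910 with an enrichment of 3.57 (2.49 to 4.97). A second peak of SLC35F4, from 58299554 to 58300193, was 640 bp wide and had an enrichment of 2.67 (1.75 to 3.91) with its summit at 0.913 of the width. Moderate folds were seen for HIPK2, a nuclear kinase (942 bp, fold 7.05), ACO1, the cytosolic aconitase that also controls iron (849 bp, fold 9.83), and SGMS1, a sphingomyelin synthase (891 bp, fold 9.52). Lower values were found for DAAM1, a formin (867 bp, fold 5.34), and UBAC2 (875 bp, fold 4.71), and UACA had 859 bp and a fold of 7.34. Just upstream of FLRT2, a membrane protein of cell guidance, lay a peak of 832 bp with a fold of 7.04.

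The highest fold, 40.3 (35.6 to 45.5), belonged to a 614 bp peak inside ARRDC3, an alpha-arrestin, and 9 of the 10 peaks of highest fold in the list were wide. The other one was 327 bp wide (chromosome 16 from 30107365 to 30107691, fold 22.9). A wide peak of 795 bp across the starts of AKT1S1, an mTOR inhibitor, and TBC1D17 had a fold of 24.5. A 682 bp peak inside NR3C1, the glucocorticoid receptor, had a fold of 23.6, and a 753 bp peak across the start of HIBADH, an enzyme of valine breakdown, had a fold of 22.6. The intervals of these 3 overlapped one another, and none reached that of ARRDC3. Of the 25 peaks of highest fold 21 were wide, of the 100 highest 80, and of the 500 highest 284, beside 7.32% of all peaks. Width and fold derive from the same pileup, so these counts only describe the list.

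A list of 45 widely known FOXO genes was compared by place, without an annotation of hg19, so it could not be counted over all peaks. For 10 of the 45 a wide peak inside the gene or across its start was certain, and the others were not counted. Beside ARRDC3, AKT1S1, HBP1, IGF1R, NR3C1, TSC1 and TXNIP these were RBL2, SESN1 and ULK1. RBL2, a pocket protein that holds cells in quiescence, had a 545 bp peak near its 5′ end with an enrichment of 6.33 (4.67 to 8.40). SESN1, a sestrin that restrains mTOR, had one of 536 bp with an enrichment of 5.51 (3.85 to 7.68). ULK1, the kinase that starts autophagy, had one of 677 bp with an enrichment of 7.21 (5.97 to 8.64) from 116 tags over a background of 15.2. The 10 peaks ranged from 536 to 1014 bp and from a fold of 5.51 to 40.3, with a median fold of 14.1. The list was chosen with results of these data known, so this median supports nothing about the list. A further 682 bp peak, with an enrichment of 19.1 (16.2 to 22.2), lay between GPR19 and CDKN1B, which encodes the cell cycle inhibitor p27.

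PIK3CB, a catalytic subunit of phosphoinositide 3-kinase, held one of 810 bp with an enrichment of 13.8 (11.3 to 16.8) and its summit 5.5 bp from the centre. RHEB, the GTPase that activates mTOR, held one of 771 bp with an enrichment of 11.5 (9.59 to 13.6) and its summit at 0.292 of the width. KLF9, a Krüppel-like factor, held one of 760 bp near its 5′ end with an enrichment of 9.53 (7.69 to 11.7). TBC1D5, a regulator of endosomes and autophagy, held one of 652 bp with an enrichment of 19.9 (16.1 to 24.3). UBL7 had one of 632 bp across its start with an enrichment of 18.1 (15.8 to 20.8) and TRIM23 one of 807 bp with an enrichment of 9.20 (7.58 to 11.1). PLCL2, THADA, TCF12 and PDE8A held peaks of 823, 767, 803 and 795 bp with folds of 12.4, 14.0, 11.8 and 11.4. The genes of this paragraph, and RBL2, SESN1 and ULK1, were chosen after their values were seen.

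Among all 708, the median width was 577 bp, with quartiles of 534 and 644 bp. By steps of 100 bp, 428 peaks fell from 500 to under 600 bp, 182 from 600 to under 700, 61 from 700 to under 800 and 37 at 800 bp or more. Wide peaks were 7.32% of the peaks and 15.6% of the covered length, 428 of 2744 kb. The threshold cuts a continuous range of widths. The 76 peaks up to 10 bp under the threshold had a median fold of 5.27 and a median pileup of 40 tags, and the 56 from 500 to under 510 bp had 6.78 and 46.5 tags. At 500 bp the highest fold was 9.21 (chromosome 18 from 60382177 to 60382676), and at the next lower width it was 13.4 (chromosome 7 from 154958373 to 154958871).

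Width, fold and significance derive from the same pileup, so the values that follow describe the list. Wide peaks had a median fold of 7.10 (quartiles 4.94 and 9.61), and the narrower had 3.87 (3.33 and 4.58). A fold of 5 or more was seen in 524 wide peaks (74.0%; 22.1% of all peaks), a fold of 10 or more in 155 (21.9%; 2.26% of all) and a fold of 20 or more in 6 (0.847%; 0.0724% of all). A −log10 q at or above 10 was reached by 552 (78.0%; 25.3% of all) and of 50 or more by 143 (20.2%; 2.17% of all). Weak wide peaks were also present, with a fold under 4 in 93 (13.1%; 53.3% of all). By width class the median fold was 6.49, 7.85, 8.39 and 7.74 from the narrowest to the widest of the 4 classes. Across the 708 peaks, which share a library, the Spearman correlation of width with fold was 0.22 and the Pearson correlation 0.24. Over the 8962 narrower peaks these were 0.36 and 0.46, and over all 9670 they were 0.44 and 0.58.

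**Figure D1:**
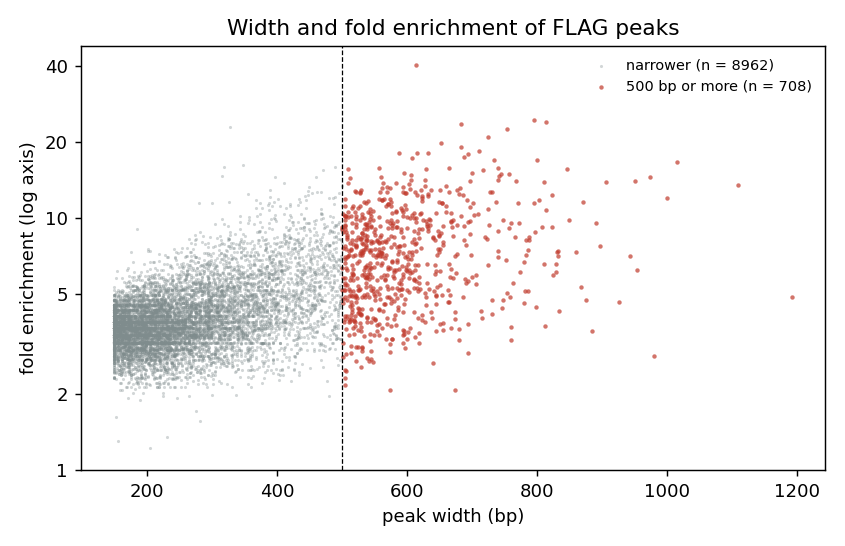
Fold enrichment (log axis) against width in bp for each of the 9670 peaks, with the 708 wide peaks in red, the narrower in grey and a dashed line at 500 bp. Folds of wide peaks run from 2.07 to 40.3, and the widest, at 1191 bp, has a fold of 4.85.

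At the same pileup, wide peaks sat on lower backgrounds than narrower ones over most of the range. The share of wide peaks rose with pileup from 0.862% at 13 to 20 tags (27 of 3134) to 28.3% at 51 to 75 tags (207 of 732). Above 100 tags it was 64.6% (106 of 164, 95% exact binomial interval 56.8 to 71.9). At 41 to 50 tags the median background was 5.59 tags for the 81 wide peaks and 9.22 for the 654 narrower, with median folds of 7.03 and 4.56. At 51 to 75 tags the backgrounds were 6.52 and 10.2 tags. Both were 3.72 tags at 13 to 20 tags, and above 100 tags they were 12.4 and 13.1. Over all pileups together the order was the other, with medians of 6.52 tags for wide and 5.31 for narrower peaks. By significance, the wide peaks also had the higher background at a −log10 q under 3 (8.38 and 4.66 tags) and from 3 to 5 (5.51 and 4.34). Of the wide peaks 64 (9.04%; 19.2% of all) lay at the lowest background of the list, the caller's genome-wide level, against 1792 of 8962 narrower peaks. The NR3C1 peak was one of the 64 and the TBC1D5 peak lay just above this level, at 3.72 tags, whereas ULK1 (15.2 tags), the peak inside PIK3IP1 (19.6) and PDE4DIP (25.1) were among the named peaks of higher background.

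**Figure D2:**
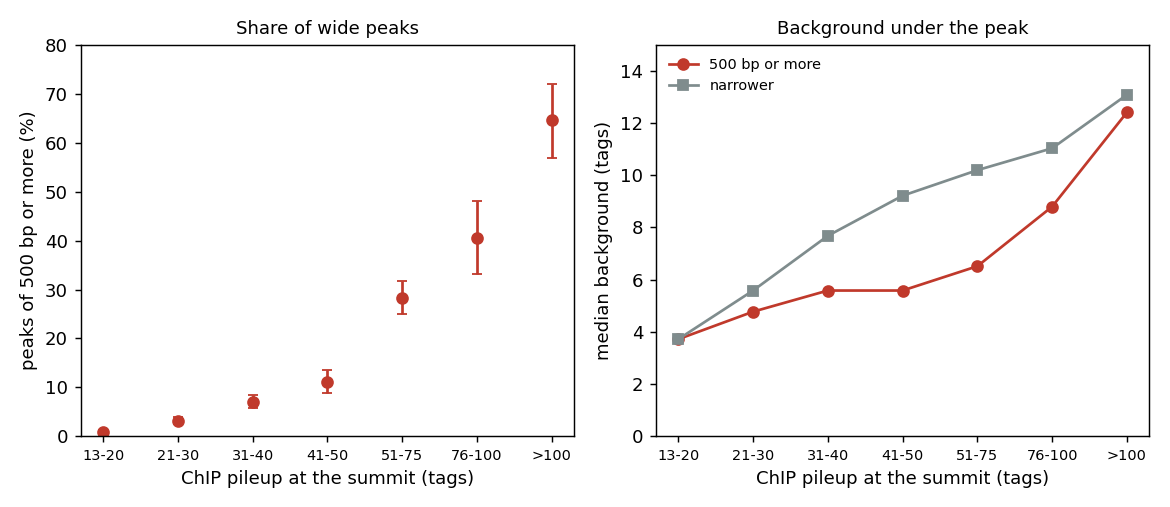
Left, percent of peaks that are wide in each class of ChIP pileup at the summit (tags), with exact binomial 95% intervals; right, median background in tags of wide (red) and narrower (grey) peaks in the same classes. The share climbs from 0.862% to 64.6%, and at 41 to 50 tags the wide peaks have a background of 5.59 tags and the narrower 9.22.

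The summit of a wide peak lay near the middle more often when the peak was strong. Position was taken as the distance of the summit from the start over the width. In the central stretch from 0.4 to 0.6 lay 370 of 708 wide summits (52.3%, interval 48.5 to 56.0; 42.8% of all peaks) and 3772 of 8962 narrower ones (42.1%, 41.1 to 43.1). Within 3 classes of significance the order was the other, and in finer classes it was mixed. With a −log10 q under 10 the share was 34.0% of 156 wide peaks (26.6 to 42.0) and 37.1% of 7063 narrower. From 10 to 50 it was 52.6% of 409 (47.6 to 57.5) and 59.9% of 1832 (57.6 to 62.1). At 50 or more it was 71.3% of 143 (63.2 to 78.6) and 77.6% of 67 (65.8 to 86.9). In each of these 3 classes the wide share was the lower, with intervals that did not overlap from 10 to 50 only. In finer classes it was the higher in those with few wide peaks: 33.3% of 12 against 25.4% of narrower at a −log10 q under 3, 37.5% of 40 against 35.3% from 3 to 5, and 91.7% of 36 against 80% of 10 at or above 100. In the finer classes of −log10 q from 5 to 100 it was the lower, with 41.2% of 131 against 58.4% from 10 to 20. By pileup it was the higher at 13 to 20 tags, with 44.4% of 27 against 30.4%, and above 100 tags, with 74.5% of 106 against 74.1%. In the classes between these it was the lower, with 30.4% of 115 against 48.9% at 31 to 40 tags.

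The offset was as frequent to the left as to the right. Of the wide summits 353 (49.9%; 51.7% of all peaks) lay left of the centre. Only 6 lay in the first or last 0.1 of the width (0.847%; 4.12% of all peaks), against 4.37% of the narrower, and all 6 had a −log10 q under 10. Among peaks under that limit the shares were 3.85% of 156 wide (1.42 to 8.18) and 5.55% of 7063 narrower (5.03 to 6.11), and no narrower peak above it had such a summit. In bp the median distance from the centre was 56.5 for wide and 29.0 for narrower peaks. The shorter side, from summit to the nearer edge, had a median of 235.5 bp in wide peaks and the longer side one of 355 bp. In the 25 widest 8 summits lay in this central stretch, among them those of DENND5B, SORBS2, SGMS1 and COA1. The largest distance from the centre, 316.5 bp, was in a 954 bp peak on chromosome 12 from 58819213 to 58820166, which had a fold of 6.21 and is given no gene.

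**Figure D3:**
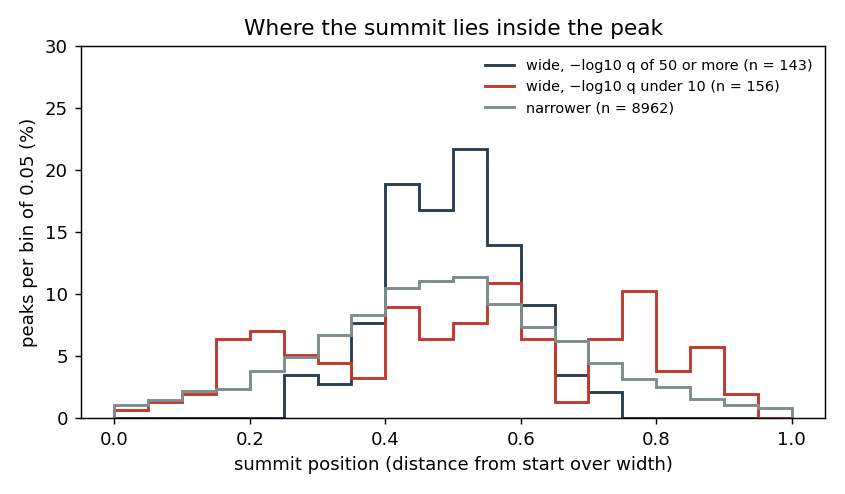
Percent of peaks in each bin of summit position (0 at the start, 1 at the end) for wide peaks with a −log10 q at or above 50 (dark), wide peaks with a −log10 q under 10 (red) and all narrower peaks (grey). Of the strong wide peaks 71.3% lie between 0.4 and 0.6, and of the weak ones 34.0%, with quartiles of 0.330 and 0.723.

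Over all peaks, the intervals of the distance to the nearest other summit overlapped between wide and narrower peaks. The median distance was 38.3 kb for wide peaks (interval of the median 32.5 to 45.1) and 41.7 kb for narrower ones (39.8 to 43.8). Within 10 kb of another summit lay 164 wide peaks (23.2%, 20.1 to 26.5; 23.9% of all) and 24.0% of narrower ones. Within 100 kb lay 507 (71.6%; 69.6% of all). Within 1 kb lay 21 (2.97%; 4.44% of all). At a −log10 q from 10 to 50 the intervals of the median distance and of the share within 100 kb did not overlap. Those of the shares within 10 kb and within 1 kb did overlap in this class. The wide peaks of this class had a higher median −log10 q than the narrower, so the 2 groups were not matched in strength. There the median distance was 35.7 kb for wide (30.6 to 45.1) and 58.2 kb for narrower peaks (52.9 to 64.7), and 71.6% (67.0 to 76.0) and 64.2% (62.0 to 66.4) lay within 100 kb of another summit. TXNIP had one of the 21 peaks within 1 kb, with the next summit 701 bp away, whereas the summits nearest to HBP1 and HIPK2 were 1105 and 1994 bp away. Among peaks with a −log10 q at or above 10, measured to each other, 7.61% of 552 wide (5.54 to 10.1) and 6.21% of 1899 narrower (5.17 to 7.40) had another within 10 kb.

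**Figure D4:**
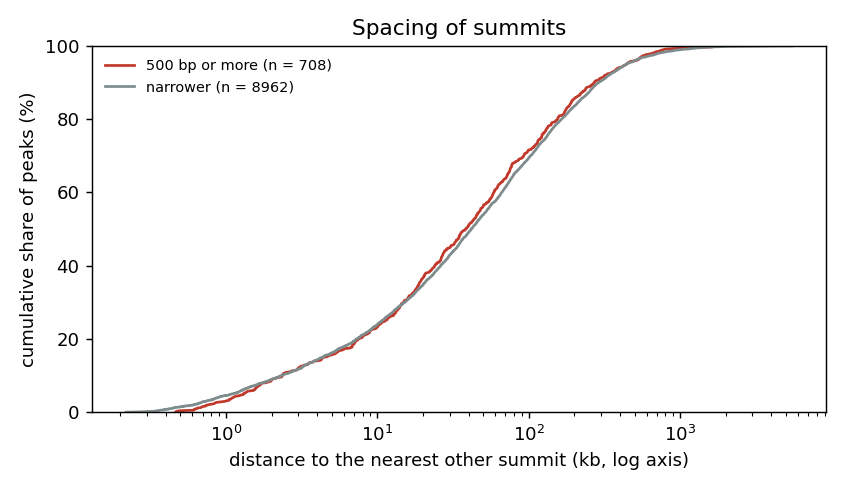
Cumulative percent of peaks against the distance in kb (log axis) to the nearest other summit of any width, for 708 wide (red) and 8962 narrower peaks (grey). The curves run close together, with medians of 38.3 and 41.7 kb.

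The nearest neighbour of a wide peak was itself wide in 78 of 708 cases (11.0%, interval 8.81 to 13.6; 7.26% of all peaks). For narrower peaks this was so in 624 of 8962 (6.96%, 6.44 to 7.51). From a −log10 q of 10 to 50 the shares were 12.7% (9.64 to 16.3) and 7.59% (6.42 to 8.90), and at 50 or more they were 6.29% (2.92 to 11.6) and 7.46%. The intervals treat peaks as independent, and the members of a pair such as that of PIK3IP1 or CABLES1 are counted from both sides. Only wide peaks considered, the median distance to the nearest was 806 kb, and 26 lay within 10 kb of another.

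Wide peaks were found on all 23 chromosomes, from 69 on chromosome 1 to 2 on X. As a share of the peaks of a chromosome they ranged from 3.89% on chromosome 13 to 10.5% on chromosome 18 among the autosomes, with a median of 7.69%. The exact interval of 22 of the 23 chromosomes held the 7.32% of the whole. The exception was chromosome 13, where 42 of 1080 peaks were wide (2.82 to 5.22), against 7.80% of 8508 on the other autosomes. Per Mb between first and last summit, chromosome 13 had 11.6 peaks, the most of any autosome, and chromosome 7 came next with 5.24. Wide peaks were also densest on chromosome 13 among the autosomes, at 0.449 per Mb (median of the autosomes 0.251). The low share thus stood beside a high number of peaks of any width. Among peaks with a −log10 q at or above 10 the chromosome 13 share was 25.8% (24 of 93, 17.3 to 35.9) against 22.5% of 2344. Its wide peaks had a median fold of 4.81, against 7.23 on the other autosomes. The share was 3.92% of 102 peaks before the longest stretch without a summit on chromosome 13 (from 53029215 to 62615263) and 3.89% of 978 after it. Among peaks with a −log10 q at or above 10 it was 9.52% of 21 before (1.17 to 30.4) and 30.6% of 72 after (20.2 to 42.5). These 2 intervals overlapped. The widest on chromosome 13 was the UBAC2 peak.

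On X, 2 of 82 peaks were wide (2.44%, 0.297 to 8.53). One lay across the start of OTUD5, a deubiquitinase, from 48815137 to 48815791, with 655 bp, 26 tags over 6.52 and an enrichment of 3.59 (2.39 to 5.201). Chromosomes 19 and 22 had 7 and 6 wide peaks, and their median folds of 10.5 and 12.0 were the highest of all chromosomes. They include the peaks of AKT1S1 and PIK3IP1. On chromosome 16 the widest, 659 bp across the start of DYNLRB2, a dynein light chain, had an enrichment of 10.6 (9.09 to 12.2).

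**Figure D5:**
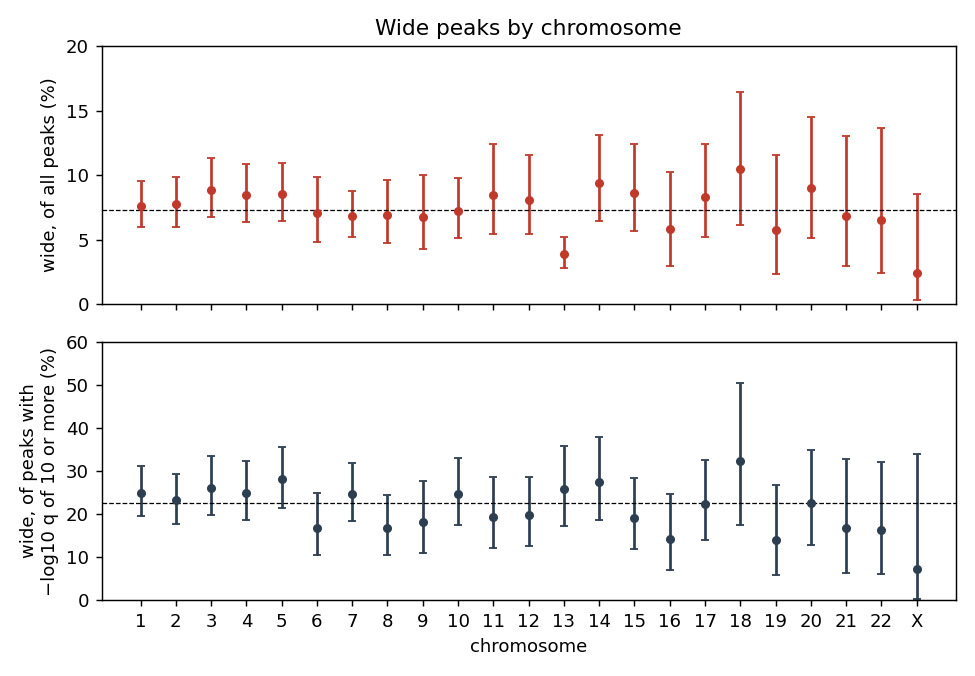
Percent of peaks that are wide on each chromosome, with exact binomial 95% intervals, among all peaks (top) and among peaks with a −log10 q at or above 10 (bottom); dashed lines mark the shares over all 23 chromosomes. Chromosome 13 is at 3.89% in the top panel and at 25.8% in the bottom one.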

How the data were processed

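The deposited file is one narrowPeak list of the FLAG library. Per the submitters' processing notes, the authors used Trimmomatic, HISAT2 and MACS2 with the build hg19. Versions, parameters and the control library: not given in the sources used here. Fixation was with 1% formaldehyde for 10 min, per the labels' protocols. The deposited fold (a ratio over the caller's background), the −log10 p-value, the −log10 q-value and the score are the authors' values per peak, and score was not used. Coordinates count from 1.

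From the fold and −log10 p, a whole-number pileup and a background were solved for each peak, and all 9717 rows returned the deposited value within 0.001; the step was tested on simulated data. Intervals are exact (binomial or Poisson, 95%), and those of medians use order statistics. Those of folds take the background as fixed. No p-value was computed. The depth in reads was not given; the smallest pileup was 13 tags. Python 3.11.15, pandas 2.3.3 and scipy 1.17.1 were used.

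Regions named were the 25 widest, the 5 wide peaks of highest and of lowest fold, the widest of each chromosome, off-centre summits, the 3 closest pairs and peaks at the threshold; not all are printed, and 1 of the 5 of highest fold is not reported here. Genes were named from general knowledge of hg19, and all symbols were found on the same chromosome in RefSeq's table of GRCh38.p14. Members and lists were chosen with earlier results of these data known. Alternatives were other widths, stricter q, merging within 500 bp, high backgrounds and other distances.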

Additional observations from a re-analysis of the deposited data

Results flagged for a closer look

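Outside chromosomes 1 to 22 and X, 9 of 47 peaks were 500 bp or more wide, in rows that entered none of the comparisons. Their 4 sequences are haplotype, unplaced or unlocalized contigs of hg19, and none of the 5 peaks on chromosome Y was among them. The widest peak of the whole list, 1473 bp on an unplaced sequence, was one of these, with 33 tags over a background of 5.59 and a fold of 5.16. A 971 bp peak on an unlocalized sequence of chromosome 7 had 445 tags over 54.0 and a fold of 8.10. The highest fold of the 9, 12.0, was in a 588 bp peak on an alternate haplotype of chromosome 17.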

How the results depend on the processing

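Of 37 alternative settings over 5 results, 18 stayed within the interval of the reported value (for the number of peaks, within 1.5 times) and 19 moved. Of the 18, 5 left out high backgrounds, which no wide peak has. Widths of 400 and 600 bp gave 1588 and 280 of the 9670 peaks, with median folds of 5.92 and 8.11. The shares on chromosome 13 were then 9.54% and 1.57%. The share of wide summits from 0.4 to 0.6 of the width was 45.8% at 400 bp, 57.4% with a −log10 q at or above 10 and 42.9% after peaks within 500 bp were merged. Measured as within 50 bp of the centre it was 45.2%, where narrower peaks reached 71.4%, so the order of wide and narrower depends on whether position is taken in bp or as a share of the width. With a −log10 q of 5 or 10 or more, which leaves fewer neighbours, another summit lay within 10 kb of 16.2% and 7.61% of wide peaks, and distances of 1 and 100 kb gave 2.97% and 71.6%. On chromosome 13 these q limits gave shares of wide peaks of 10.9% and 25.8%, beside 12.2% and 22.5% over all 23 chromosomes. Merging gave 6.59% on chromosome 13. Merging gave a median fold of 6.32, and a −log10 q at or above 10 gave 8.09. Leaving out chromosome 13 was chosen after seeing the data and moved none of the 4 results it applies to. No paired analysis was possible because the FLAG group has 1 library. The smallest summit in the list had 13 tags and the smallest −log10 q was 1.31. The FOXO gene list was not counted over start sites, since no annotation of hg19 was used here.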
